A study of Mus musculus with 7 samples.

Results

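The genes of the proteins of the cytosolic ribosome were examined in cultured mouse lung endothelial cells (MLEC). They were taken as all rows of the expression table whose name is Rpl or Rps with a number, or Rplp0, Rplp1, Rplp2 or Rpsa, without pseudogene rows and without the Rps6k kinases. This gave 83 of 38472 genes, 51 of the large (60S) and 32 of the small (40S) subunit. Expression was deposited as FPKM, a level scaled by mapped reads and by the length of the transcript. The WT group held 4 libraries (a, c, e and f) of wild type C57BL/6 cells. The AM EC-KO group held 3 libraries (b, d and g) of cells from mice that carry a floxed Adm gene and Cre recombinase driven by VE-cadherin, so that adrenomedullin (AM) is deleted in endothelium. Cells were isolated from the lungs of 3 mice by PECAM-1 beads, grown, and purified a second time by ICAM-2 beads. Below, WT values follow the order a, c, e, f and AM EC-KO values the order b, d, g. For its sequencing figure the study states at least 3 MLEC preparations, but it does not say which library came from which. The p-values thus measure the spread between these libraries, which may be technical. In bulk RNA, fewer cells of a type and less RNA per cell cannot be told apart.

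Ribosomal proteins assemble with ribosomal RNA into the subunits that translate mRNA, and most are needed in equal numbers in each ribosome. Their mRNAs are short and abundant, and begin with a tract of pyrimidines through which the mTOR pathway and LARP1 regulate their translation. Many of the genes have given rise to processed pseudogenes, intronless copies of the mRNA that reverse transcription has placed elsewhere in the genome. Some proteins also have a paralogue, a separate gene with a related protein, such as Rpl39l beside Rpl39.

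Adm itself was measured at 48.2, 70.1, 76.1 and 43.8 FPKM (WT libraries) and at 9.31, 17.2 and 0.75 FPKM (AM EC-KO libraries), so the genotypes did not overlap and Adm did not go against a label. In the test used below its difference was -3.10 on the log2 scale (SE 0.75, limma unadjusted p = 0.0046, adjusted p = 0.95, two-sided exact permutation p = 0.029), so that the deleted gene itself was not called. Endothelial markers summed to between 1702 and 2547 FPKM per library over 10 genes, none of which was at 0 everywhere. Markers of fibroblasts (6 genes) summed to 400.0 FPKM in WT e and to between 18.2 and 97.6 FPKM in the other 6 libraries. Those of smooth muscle and pericytes (6 genes) summed to 329 to 625 FPKM in WT and 499 to 672 FPKM in AM EC-KO, and those of macrophages (7 genes) to 236 FPKM in AM EC-KO d and 51.5 to 129 FPKM elsewhere. The part of these cells in the results below was not tested. Markers of lung epithelium (5 genes) were at 13.5 FPKM in WT e and at most 1.42 FPKM elsewhere. Depth was estimated, from the value that a single read has in genes of low expression, at 6.43 to 7.59 M mapped reads per library.

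The sequences below are shown because the level of a row may depend on whether its reads can be told from those of a copy. This was not tested. Reads were 150 bases long. Coding bases 1 to 150 of Rps12 (chr10:23785183-23787275, minus strand, GRCm38), which encodes a protein of the small subunit, were found without a difference in Rps12-ps3 (chr19:59322290-59322783) and in Rps12l1 (chr7:56014016-56014414), both on the plus strand.
Rps12: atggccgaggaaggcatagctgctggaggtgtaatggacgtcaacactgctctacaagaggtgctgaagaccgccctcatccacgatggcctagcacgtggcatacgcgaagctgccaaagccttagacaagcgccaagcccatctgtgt
Coding bases 1 to 150 of Rpl38 (chr11:114668524-114672331), whose protein is known in mouse for the translation of Hox mRNAs, were found without a difference in Rpl38-ps2 (chr6:140746960-140747172).
Rpl38: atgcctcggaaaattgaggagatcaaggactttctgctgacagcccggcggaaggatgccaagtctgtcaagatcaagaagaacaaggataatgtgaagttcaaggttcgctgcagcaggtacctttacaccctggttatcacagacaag
Rps27 (chr3:90212522-90213651) had a copy without a difference over these bases, Gm9846 (chr9:114982366-114982739), while its paralogue Rps27l (chr9:66946086-66949516) differed at 35 of 150 bases. Capitals mark the differences.
Rps27: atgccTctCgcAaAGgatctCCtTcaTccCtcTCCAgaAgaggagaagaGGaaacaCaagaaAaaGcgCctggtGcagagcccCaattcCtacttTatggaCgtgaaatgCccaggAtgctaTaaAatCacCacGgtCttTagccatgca
Rps27l: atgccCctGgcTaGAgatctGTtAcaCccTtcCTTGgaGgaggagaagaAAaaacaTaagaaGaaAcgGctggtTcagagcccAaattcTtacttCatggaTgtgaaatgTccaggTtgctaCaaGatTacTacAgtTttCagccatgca
Rpl39 (chrX:37082520-37085402) and its paralogue Rpl39l (chr16:10170226-10174911) differed at 22 of these 150 bases, again in capitals.
Rpl39: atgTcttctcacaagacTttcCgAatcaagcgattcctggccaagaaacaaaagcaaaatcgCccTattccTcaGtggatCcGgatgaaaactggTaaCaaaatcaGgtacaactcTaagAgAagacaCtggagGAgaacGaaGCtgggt
Rpl39l: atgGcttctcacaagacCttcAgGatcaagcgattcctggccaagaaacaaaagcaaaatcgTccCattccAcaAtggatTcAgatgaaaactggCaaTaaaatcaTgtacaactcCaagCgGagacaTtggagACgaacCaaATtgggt

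Every gene of the list was accounted for. Rpl13 had no library values. Rpl19 was listed at 0 in all 7 libraries, although the authors' own group values were 125 FPKM for WT and 124 FPKM for AM EC-KO. Rpl10l was at 0 throughout and Rpl3l was at 0 except for 0.013 FPKM in WT c. These 2 paralogues are known from testis and from heart and skeletal muscle, in this order. The row named Rpl24 carries the identifier that GENCODE M21 gives to its neighbour Zbtb11. The other 79 genes passed the filter on low values (mean of at least 0.1 FPKM, above 0 in at least 3 libraries), 47 of the large and 32 of the small subunit, and 71 were above 0 in every library.

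The highest listed levels in the large subunit were those of Rpl41, Rplp1, Rpl32, Rpl13a and Rplp0. Rpl41, which encodes a very short, basic peptide, was at 1961, 1923, 1559 and 1523 FPKM across the WT libraries and 1961, 2044 and 1661.9 FPKM across the AM EC-KO libraries. The genotypes overlapped, and the 3 lowest values were those of WT e, WT f and AM EC-KO g. Rplp1, an acidic protein of the stalk that recruits elongation factors, was measured at 1222, 1263, 1142 and 1228 FPKM (WT libraries) and at 1236, 1293 and 1273 FPKM (AM EC-KO libraries). Its partner Rplp2 was listed far lower, at 69.5 to 84.4 FPKM in WT and 62.6 to 88.4 FPKM in AM EC-KO, and Rplp0, the base of the stalk, at 671 to 756 FPKM and 697 to 739 FPKM. Rpl32 was at 930 to 978 FPKM in WT and 912 to 969 FPKM in AM EC-KO.

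Among the highest listed levels in the small subunit were those of Rps21, Rps9 and Rps14. Rps21 was at 1350, 1334, 1317 and 1212 FPKM across the WT libraries and 1359, 1327 and 1245 FPKM across the AM EC-KO libraries. Rps9 was at 794, 782, 979 and 823 FPKM across the WT libraries and 804, 762 and 863 FPKM across the AM EC-KO libraries, with WT e the highest. The median coefficient of variation over the 7 libraries was 7.42% over the 71 genes above 0 in all of them, and it was highest, at 39.4%, in Rpl22l1. It was 5.75% in the 41 genes at a mean of at least 100 FPKM and 11.1% in the 30 below. The lowest listed level in the small subunit was that of Rps12, at 5.31 to 9.56 FPKM in WT and 7.09 to 9.44 FPKM in AM EC-KO. Its near-identical copies, counted below, are not in this level, and with them its mean was 2332 FPKM.

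**Figure D1:**
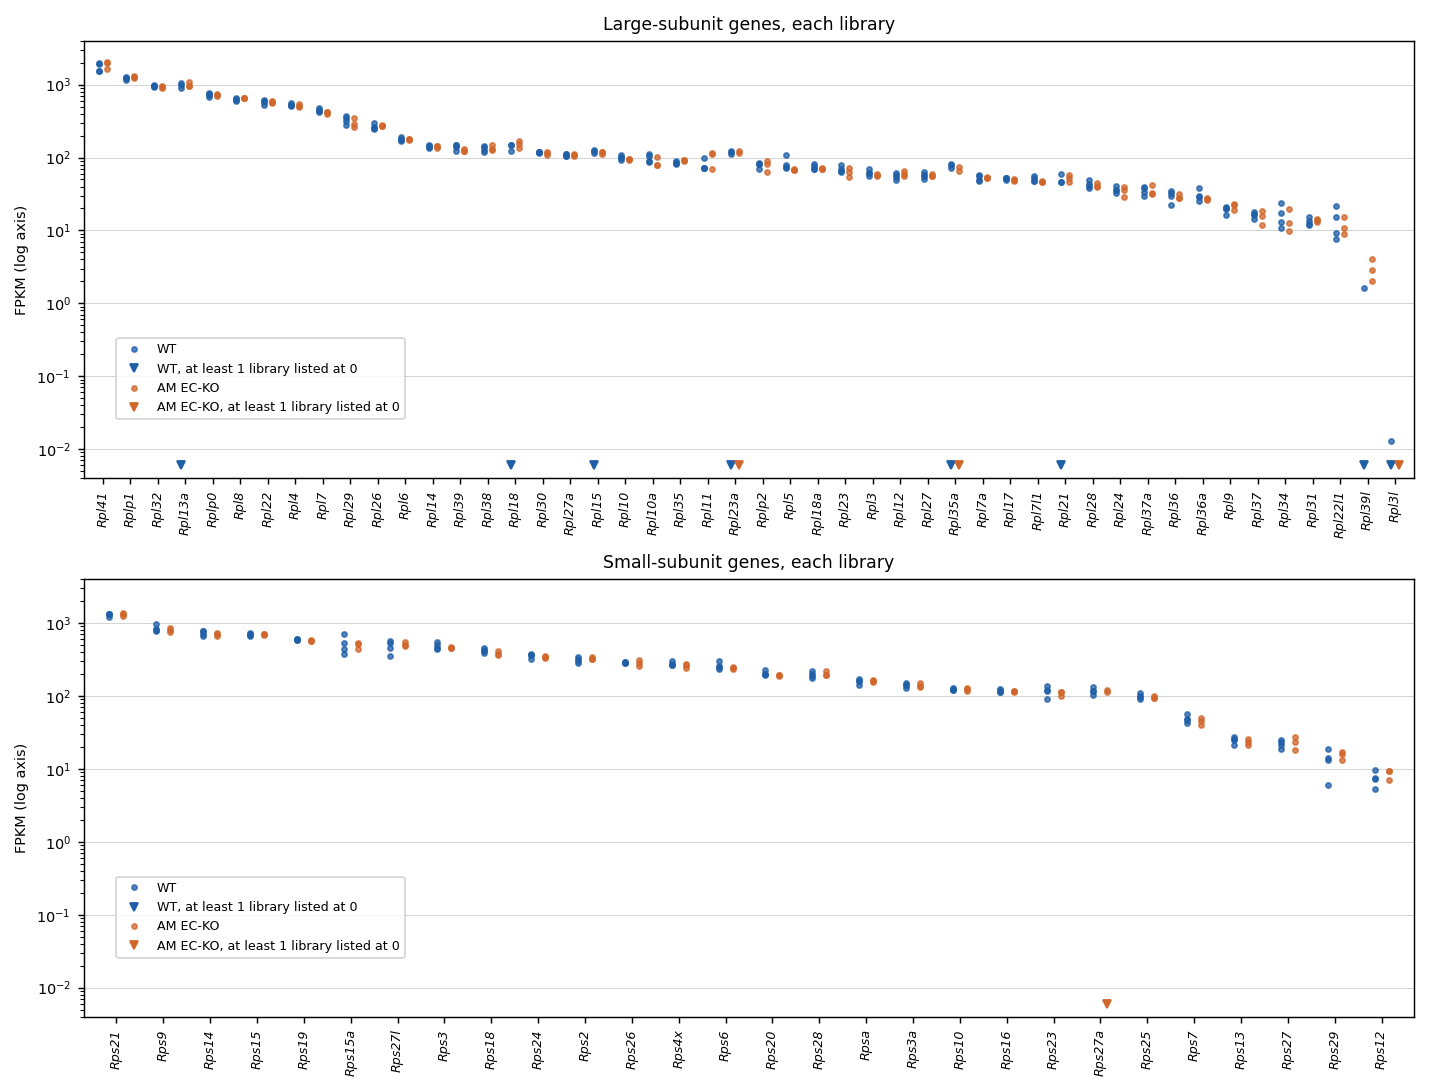
FPKM on a log axis of the ribosomal protein genes above 0 in some library (4 genes are not shown), large subunit above and small subunit below, ordered by the mean. Points are libraries, 4 WT (blue) and 3 AM EC-KO (orange), and triangles at the foot mark genes listed at 0 in at least 1 library of that genotype; levels run from 1805 FPKM for Rpl41 to 7.93 FPKM for Rps12 and below 2 FPKM for Rpl39l and Rpl3l, and the genotypes overlap for all but 4 of the 79 tested genes.

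Levels were spread widely between genes although the proteins are needed in like numbers. Over the 75 genes that are not paralogues and had a level above 0, the 10th, 50th and 90th percentile of the mean level were 26.1, 123 and 727 FPKM, and the SD was 1.84 on the log2 scale. The order of the genes was nearly the same in each library, with Spearman's rho of 0.988 to 0.998 between libraries over 71 genes. Over all 82 genes with library values, paralogues and genes at 0 included, the median was 77.4 FPKM in the large and 262 FPKM in the small subunit.

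Near-identical copies were then counted, as other genes of the table with a transcript at least 95% identical over at least 150 bases. There were 463 such copies for 73 of the 83 genes, of which 439 are annotated as processed pseudogenes and 22 as protein coding, and 159 were at a mean of at least 100 FPKM. Together they held 14.3% to 16.5% of all FPKM in each library, and the ribosomal protein genes themselves 3.91% to 4.16%. The copies of 63 genes summed to more than the gene. Rps12 was at a mean of 7.93 FPKM and its 20 copies at 2324 FPKM, with Rps12-ps3 alone at 1131 to 1370 FPKM. Rpl38 was at 133 FPKM and Rpl38-ps2 at 1780 to 2178 FPKM, and Rps27 was at 22.5 FPKM and Gm9846 at 1086 to 1374 FPKM. A level in this table is therefore the level assigned to a row, and levels of different genes were not compared as amounts of mRNA.

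The share of each mRNA that a copy repeats was measured as the percentage of its 150-base windows also found in a copy. It was 0% in 22 genes and 90.9% in Rpl10 and 87.3% in Rps12, and only Rps27 was higher. Of the 75 genes, 17 had no shared window, with a median of 639 FPKM (66.4 to 1306 FPKM). The 28 genes with up to 30% shared had a median of 121 FPKM (14.1 to 1805 FPKM), and the 30 genes with more had a median of 85.9 FPKM (7.93 to 339 FPKM). Across these genes, which share their libraries and are not independent, Spearman's rho between the level and the shared percentage was -0.59. With the FPKM of the copies added, the medians of these classes were 780, 1479 and 1339 FPKM, rho was 0.25, and the SD of the level was 0.993 on the log2 scale. The part that the assignment of reads between copies has in these levels was not tested.

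**Figure D2:**
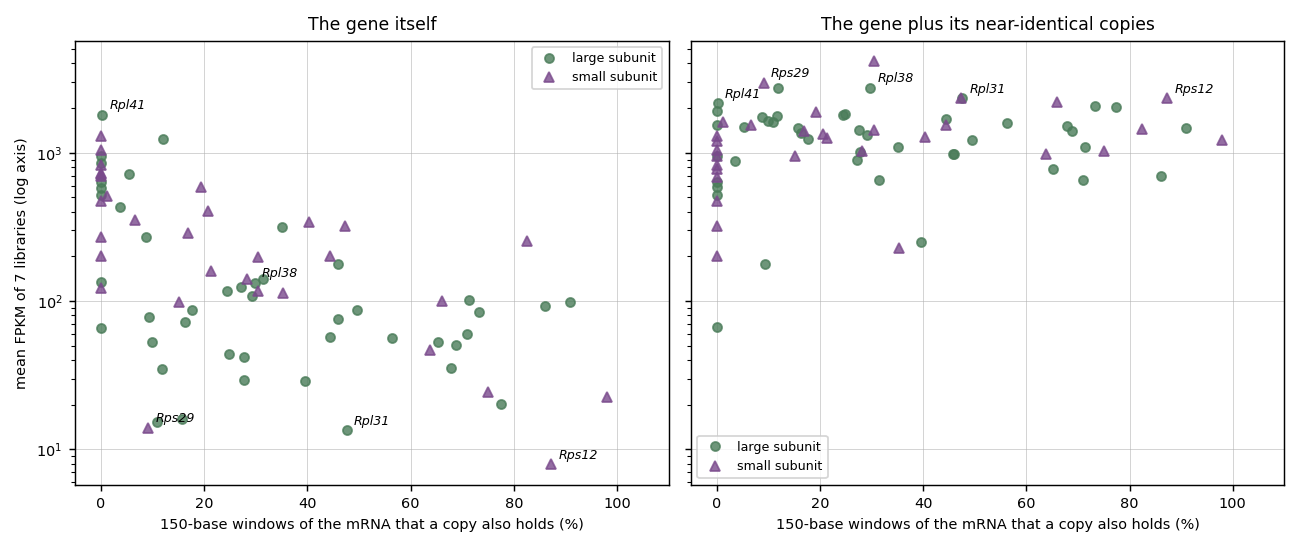
Mean FPKM over 7 libraries (log axis) against the percentage of 150-base windows of the mRNA that a near-identical copy also holds, for 75 ribosomal protein genes without the paralogues. On the left, the gene itself, from 7.93 FPKM for Rps12 to 1805 FPKM for Rpl41; on the right, the same genes with the FPKM of their copies added, where Rps12 is at 2332 FPKM and rho changes from -0.59 to 0.25.

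Other features of the list were described without a test. The chosen genes lie on 19 chromosomes, 14 of them on chromosome 7, among them Rpl13a (chr7:45125558-45128761). In GENCODE M21, 30 of the 83 genes hold 59 small nucleolar RNA genes, of which 57 had library values and 17 were above 0 in some library. RefSeq start regions (GRCm38.p6) were found for 63 genes. The motif CGGAAG, on either strand between 250 bases before and 50 bases after a start, was held by 66.7% of these and by 18.8% of 27025 genes. A run of at least 8 C or T within 50 bases of a start, on the coding strand, was held by 82.5% and by 39.3%. These are matches of letters and not sites.

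Exact zeros stood among high values for 7 genes of the 78 above 5 FPKM in some library (8.97%), and for 1266 of 10565 genes of the table (11.98%). Rpl13a, a large-subunit protein with a role in translational silencing in human monocytes, was at 1038, 1003, 0 and 908 FPKM across the WT libraries and 954, 951 and 1079 FPKM across the AM EC-KO libraries. Rpl15 and Rpl18 were also at 0 in WT e only, with 111 to 127 FPKM and 124 to 167 FPKM in the other 6 libraries. Rpl21 was at 0 in WT c only, with 45.5 to 59.6 FPKM elsewhere. Rpl23a and Rpl35a were at 0 in WT c and AM EC-KO b, with 111 to 125 FPKM and 66.2 to 81.3 FPKM in the other 5. Rps27a, whose protein is made as a fusion with ubiquitin, was at 0 in AM EC-KO b and at 105 to 133 FPKM elsewhere. Genes that overlap 5 of these loci or their deposited intervals were at 0 in the same libraries, namely Flt3l with Rpl13a, Nkiras1 with Rpl15, Sphk2 with Rpl18, Tlcd1 with Rpl23a and Clhc1 with Rps27a. Clhc1 was at most 0.313 FPKM in the other libraries. The authors' group value for Rpl13a was 1003 FPKM in WT, near the 3 libraries above 0. The difference between genotypes moved with these zeros. For Rpl13a it was 2.50 on the log2 scale (SE 2.50) with the zero and 0.017 with zeros as missing values. For Rpl18 it was 1.91 and 0.13, and for Rps27a -2.30 and -0.0027.

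**Figure D3:**
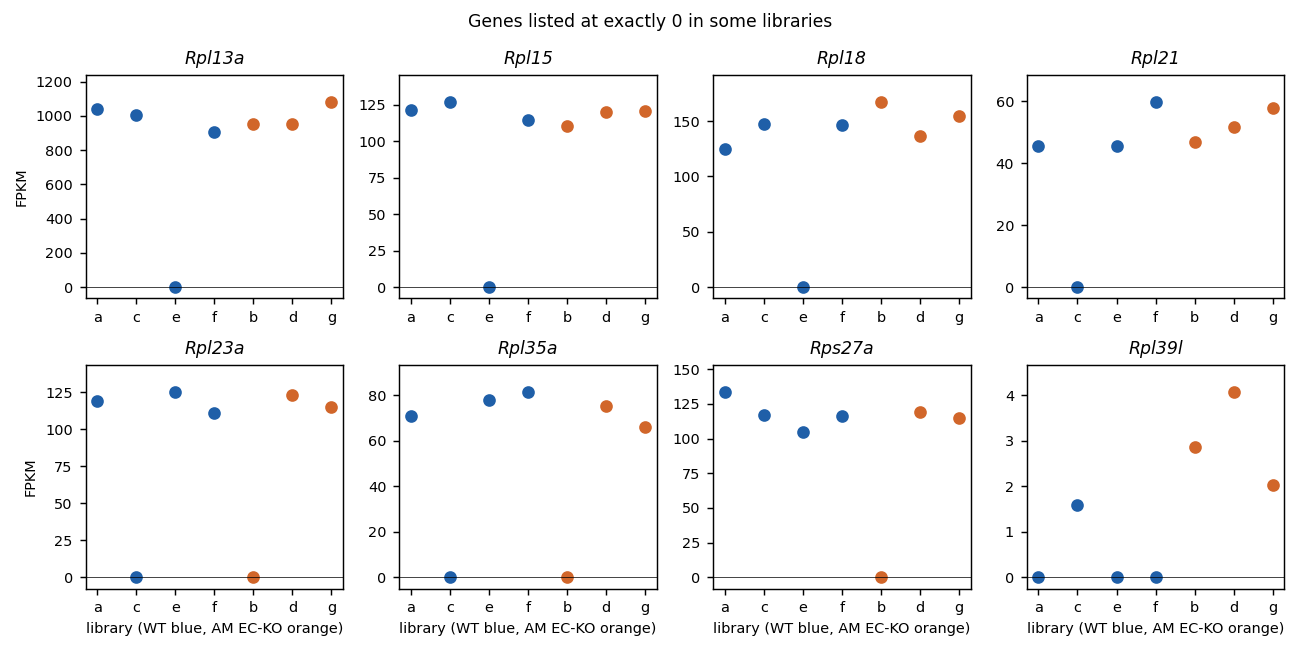
FPKM (linear axis) in each library, WT in blue and AM EC-KO in orange, of 7 ribosomal protein genes listed at 0 in 1 or 2 libraries and of Rpl39l. Rpl13a, Rpl15 and Rpl18 are at 0 in WT e, Rpl21 in WT c, Rpl23a and Rpl35a in WT c and AM EC-KO b, and Rps27a in AM EC-KO b, while Rpl39l is at 0 in WT a, e and f.

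The study sequenced these cells to find differences that go with the loss of AM. No ribosomal protein gene was called between the genotypes. Of 79 tested, 0 passed an adjusted p of 0.1 (limma on log2(FPKM + 1), Benjamini-Hochberg over 15604 genes), where 0.0641% of all genes did, and 1 was under an unadjusted p of 0.05, where 3.07% of all genes were. Levels in AM EC-KO lay wholly above WT for 1 gene (2.91% of all genes) and wholly below for 3 genes (2.22% of all genes). The median difference, AM EC-KO minus WT, was -0.0095 in 47 genes of the large subunit, 21 above and 26 below 0, and -0.035 in 32 genes of the small subunit, 11 above and 21 below 0, beside -0.0085 over all genes. The median for the large subunit was 0.0055 without AM EC-KO b and -0.0008 without WT a, and that for the small subunit was -0.0088 without WT e. The difference was within 0.1 on the log2 scale for 63.3% of the 79 genes and for 40.4% of all genes. Among the 71 genes above 0 in all libraries it ran from -0.27 (Rpl5) to 0.32 (Rps29). Their median residual SD was 0.108, against 0.178 in the 6554 genes averaging at least 10 FPKM without a zero. Neither this set nor that of all genes was matched for level to the ribosomal protein genes. The part of level in these comparisons was not tested.

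**Figure D4:**
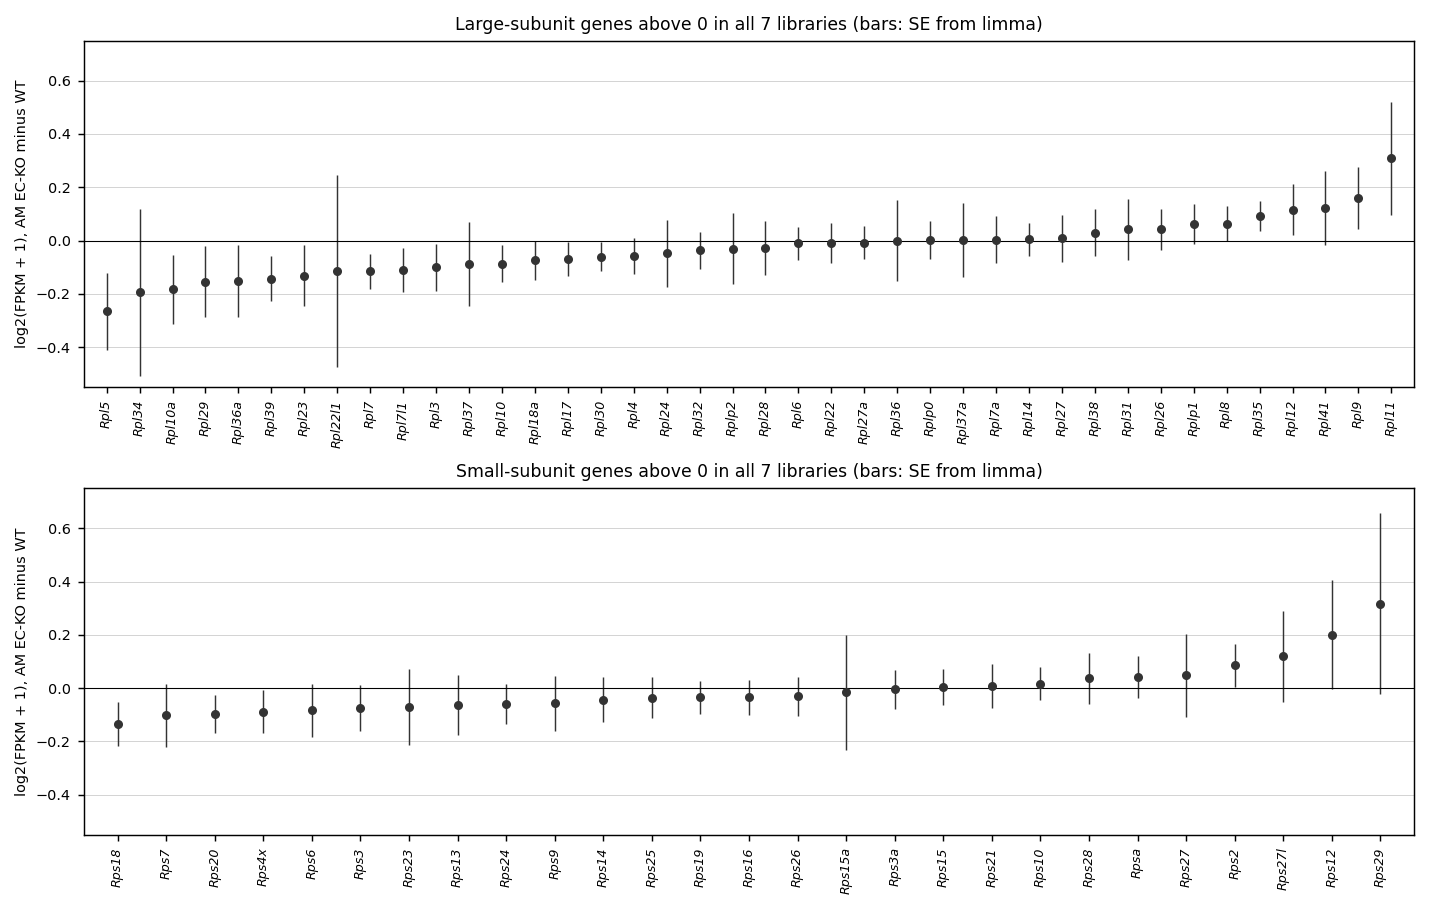
Difference between genotypes in log2(FPKM + 1), AM EC-KO minus WT, for ribosomal protein genes above 0 in all 7 libraries (4 genes are not shown), ordered by size within the large subunit (above) and the small subunit (below). Points are limma estimates from 4 WT and 3 AM EC-KO libraries with bars of 1 SE; they run from -0.27 for Rpl5 to 0.32 for Rps29, and none passed the adjusted threshold.

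The one gene under 0.05 was Rpl39l, a paralogue known in mouse from testis. It was measured at 0, 1.60, 0 and 0 FPKM (WT libraries) and at 2.85, 4.06 and 2.02 FPKM (AM EC-KO libraries). All AM EC-KO libraries lay above all WT libraries, at levels of a few FPKM where an exact 0 can be a failed estimate. The difference in log2(FPKM + 1) was 1.62 (SE 0.39, limma unadjusted p = 0.0046, adjusted p = 0.95, two-sided exact permutation p = 0.057). The size depends on the pseudocount, and was 3.87 with 0.1 FPKM in place of 1 FPKM. The adjusted p was 0.070 without WT c, and with zeros as missing values the difference was 0.58 (limma unadjusted p = 0.17). No near-identical copy of Rpl39l was found. Rpl39 was at 140, 147, 150 and 122 FPKM across the WT libraries and 132, 124 and 123 FPKM across the AM EC-KO libraries, which overlapped.

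Rpl7, Rps18 and Rps20 were lower in AM EC-KO in their means, and none passed the test. Their limma unadjusted p was 0.12, 0.14 and 0.21, in this order. Rpl7 was at 445, 435, 473 and 423 FPKM across the WT libraries and 399, 416 and 415 FPKM across the AM EC-KO libraries, without overlap (-0.11, SE 0.065, two-sided exact permutation p = 0.057). Rps18 was at 385 to 458 FPKM in WT and 362 to 410 FPKM in AM EC-KO. Rps20, named after its values were seen, was at 197 to 228 FPKM in WT and 189 to 195 FPKM in AM EC-KO, also without overlap. On the other side, Rpl35 was at 82.2 to 89.4 FPKM in WT and 88.4 to 92.2 FPKM in AM EC-KO, and Rpl9 and Rpl12 differed by 0.16 (SE 0.12) and 0.12 (SE 0.095), and by 0.084 and 0.060 without WT e. The difference of Rpl12 was 0.062 without AM EC-KO g.

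Rpl5, Rpl11 and Rpl23 encode proteins that bind MDM2 when ribosome assembly is disturbed. Rpl5 was measured at 74.9, 70.8, 107 and 78.2 FPKM (WT libraries) and at 69.3, 67.5 and 66.4 FPKM (AM EC-KO libraries), without overlap and with WT e far above the rest (-0.27, SE 0.14, and -0.14 without WT e). Rpl11 was at 71.3, 98.1, 72.4 and 71.2 FPKM across the WT libraries and 117, 68.6 and 111 FPKM across the AM EC-KO libraries (0.31, SE 0.21, and 0.17 to 0.55 with an AM EC-KO library left out, the lowest without b and the highest without d), so that libraries of both genotypes were high and low. Rpl23 was at 62.6 to 77.8 FPKM in WT and 54.6 to 71.2 FPKM in AM EC-KO. In human, variants of Rps19, Rps24, Rps26 and Rpl35a, among others, cause Diamond-Blackfan anemia. Of these, Rps19 was at 582 to 614 FPKM in WT and 574 to 589 FPKM in AM EC-KO, Rps24 at 322 to 381 and 336 to 350 FPKM, and Rps26 at 284 to 296 and 260 to 309 FPKM. Each of these pairs of ranges overlapped.

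Among further proteins of known role, Rps6, the target of the S6 kinases, was at 234 to 303 FPKM in WT and 233 to 253 FPKM in AM EC-KO. Rpsa, known also as the laminin receptor, was at 140 to 169 and 158 to 167 FPKM. The paralogue Rps27l, a target of p53, was measured at 565, 533, 350 and 461 FPKM (WT libraries) and at 553, 502 and 479 FPKM (AM EC-KO libraries). Its parent Rps27 was at 18.9 to 25.1 and 18.4 to 27.4 FPKM, and Rps27l was at 40.3% of Rps27 with its copies. Rpl22l1 was at 7.72, 15.1, 21.9 and 9.19 FPKM across the WT libraries and 15.1, 8.98 and 10.9 FPKM across the AM EC-KO libraries, or 1.32% to 3.54% of Rpl22, which had almost no copy FPKM and was at 530 to 619 FPKM in WT and 564 to 599 FPKM in AM EC-KO. Rpl7l1 was at 47.2 to 56.2 and 45.8 to 48.4 FPKM, or 10.7% to 12.1% of Rpl7. Parents with few copies and with many are not on one footing in these ratios. Copies of the paralogue are not counted in the ratios to Rpl22 and Rpl7 either. Those of Rpl22l1 (2 copies) summed to 191 FPKM beside a mean of 12.7 FPKM for the gene. Those of Rpl7l1 (3 copies) summed to 51.5 FPKM beside 49.2 FPKM. Rpl3 was at 55.4 to 70.4 and 56.5 to 59.7 FPKM, Rpl10 at 91.9 to 108.0 and 93.0 to 95.5 FPKM, and Rps4x at 263 to 306 and 240 to 273 FPKM.

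The share of all FPKM held by the large subunit was 2.03%, 1.95%, 1.86% and 1.94% for the WT libraries, and 1.96%, 1.98% and 1.99% for the AM EC-KO libraries. That of the small subunit was 2.02%, 2.001%, 2.30% and 2.01%, and 1.96%, 1.97% and 2.01%. WT e was the lowest in the first and the highest in the second. It is also the library with the highest fibroblast and epithelial markers and with 3 large-subunit genes at 0 among high values (Rpl13a, Rpl15 and Rpl18), and the part of the markers in these shares was not tested. Over the 71 genes without a zero, the large-subunit share was 1.81% in WT e and 1.68% to 1.75% in the other 6 libraries. The difference was 0.030 percentage points for the large (two-sided exact permutation p = 0.54 over 35 splits) and -0.105 for the small subunit (p = 0.23, exact), where the smallest possible p is 0.029. Over the genes above 0 in every library the difference for the large subunit turned to -0.027 (exact p = 0.54). Over the 71 genes above 0 in every library, WT e held the highest level of 32 (45.1%), where it held 32.1% of all tested genes above 0 in every library. Levels in WT e, WT f and AM EC-KO g lay wholly below the other 4 libraries for 4 genes (Rpl27a, Rpl41, Rps21 and Rps27l, 5.1%, against 6.68% of all genes), and wholly above for 9 (11.4%, against 11.6%). This grouping by library letter was chosen after the values were seen and no label calls it a batch.

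With each gene summed with its copies, a choice made after seeing the data, 80 genes were tested and 0 were called. The median difference was then -0.029 in the large and -0.053 in the small subunit, beside -0.0080 over all genes of that fit. Of the 80 genes, 58 were below 0. Without the copies 47 of 79 were, and 51.8% of all genes. This was not tested.

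Genes that work with the ribosome were read in the same limma fit, and 0 were called in any list. Over all genes, 3.07% were under an unadjusted p of 0.05 and 51.8% were below 0, and the counts of each list are to be read against these shares. Of 19 elongation factors and other genes with a pyrimidine start, 16 were below 0, with a median difference of -0.065, and 0 were under an unadjusted p of 0.05. Eef2, the translocation factor, was at 421 to 536 FPKM in WT and 424 to 458 FPKM in AM EC-KO. Of 24 initiation factors 0 and of 34 ribosome biogenesis genes 1 were under 0.05, namely Ubtf, a factor of RNA polymerase I, which was listed at 0 in AM EC-KO d and g. Of 75 proteins of the mitochondrial ribosome, 50 were above 0 with a median difference of 0.041, and 2 were under 0.05, a share near that of all genes. Both were higher in AM EC-KO. Mrps26 was measured at 20.6, 18.6, 17.0 and 19.1 FPKM (WT libraries) and at 25.5, 24.4 and 22.2 FPKM (AM EC-KO libraries), without overlap (0.34, SE 0.095, limma adjusted p = 0.95). Mrpl14 was at 45.8, 48.5, 40.8 and 49.3 FPKM and at 57.6, 52.7 and 50.4 FPKM, also without overlap (0.21, SE 0.090, limma adjusted p = 0.95). Of 22 regulators (the mTOR pathway, LARP1, MYC and MDM2) and 9 tested factors of nonsense-mediated decay, 0 were under 0.05. Of 157 tested rows named as ribosomal protein pseudogenes, 1 was higher and 1 lower at an unadjusted p under 0.05, and the median difference was -0.043.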

How the data were processed

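Poly(A) RNA of cultured MLEC was sequenced as single reads in 7 libraries. The authors trimmed reads with Cutadapt and mapped them to GRCm38 with TopHat2 2.0.6, and their processing notes name Cufflinks and Cuffdiff. The deposited FPKM are values of genes by library and by genotype. The authors' deposited fold changes, p-values, q-values and splicing columns were not used. How reads that map to several places were treated is not given in the sources used here.

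Library FPKM were taken as log2(FPKM + 1). The test was limma 3.58.1 with moderated variance and a mean-variance trend, run in R 4.3.3 with genotype as the only term, after a filter at a mean of 0.1 FPKM and at least 3 libraries above 0. No count model was fitted. The code was tested on simulated data. Copies were found with BLAST+ 2.17.0 in GENCODE M21 transcripts, in which 36341 of the gene identifiers occur, and coordinates are those of M21. For 22 genes the deposited interval is under 10% of the length of the M21 gene. Overlap was not measured. The deposited interval of Rpl13a (chr7:45128700-45136231) is longer than its M21 gene and lies mostly outside it. One mRNA per gene was used (APPRIS principal first). Depth was estimated from M21 transcript lengths.

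Members and lists were chosen with earlier results of these data known. Named with values are the paralogues with their parents, the 5 most abundant genes per subunit, the 5 with the smallest p in each direction, those with exact zeros, the stalk and 40S landmarks, the MDM2 binders and the anemia genes. Outside the list, up to 4 genes of each list by smallest p may be named. Rps12, Rpl38, Rps20, Rps29, Rpl27a, Rpl13, Rpl19 and Rpl24 were named after their values were seen. Alternatives were another pseudocount, filters, scalings, no trend, zeros as missing values, each library left out and, for shares, other denominators. Values of 4 small-subunit genes that entered every fit and count are not reported here.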

Additional observations from a re-analysis of the deposited data

Results flagged for a closer look

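In the 4 WT libraries, 1 library stood apart from the other 3 by Dixon's ratio (the gap to the nearest value over the range, against its 95% critical value) for 9 of 47 quantities examined, and 7 of the 9 are genes with an exact 0 in WT. Chance alone gives about 1 in 20 groups. The ratio was 0.9535 for Rpl11, where WT c is high, and 1.0 for Rpl39l and for Rpl3l, which in WT are above 0 only in library c. It was 0.8745 for Rpl13a, 0.904 for Rpl15 and 0.8431 for Rpl18, which are at 0 in WT e, and 0.8884 for Rpl23a and 0.8716 for Rpl35a, which are at 0 in WT c. The share of FPKM in small-subunit genes had a ratio of 0.9299, with WT e at 2.30%.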

How the results depend on the processing

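Of 714 fold changes of named genes under the alternatives, 713 stayed on the same side of the threshold. The other was that of Rpl39l, 1.96 and called without WT c. No named gene was called in the main fit, so this count does not show how far the sizes moved. The difference of Rpl23a was -0.57 in the main fit and 0.013 with zeros as missing values. That of Rpl41 was 0.12 in the main fit and -0.037 with quantile normalization. The number of genes called was 0 in every alternative that kept all libraries and 0 to 1 with a library left out. The median of the large subunit was -0.0425 on the TPM scale, -0.0436 with equal sums over the other genes and -0.0559 with quantile normalization, and that of the small subunit -0.0677, -0.0688 and -0.075, where the median of all genes was -0.034, -0.035 and -0.0062. Left-out libraries gave -0.0299 to 0.0055 for the large and -0.0517 to -0.0088 for the small subunit. Without mitochondrially encoded genes in the denominator, the large subunit held 2.072% in WT and 2.113% in AM EC-KO. The small subunit then held 2.22% in WT and 2.118% in AM EC-KO. With genes above 0 in every library alone, the large subunit held 1.742% and 1.715%, and the small subunit 2.06% and 1.97%. These shares move by construction. No paired analysis was possible because the genotypes share no library letter. An estimated 6.43 to 7.59 M reads limit genes of a few FPKM most.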
